A study of Homo sapiens with 4 samples.

Results

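In the count table of 56304 gene rows, 44 genes carry the symbol of a proteasome subunit, regulator or inhibitor. Such a symbol is made of PSMA to PSMF and a number, and every gene with one was taken. The members were chosen with earlier results of these data known. Of these 44 genes, 42 passed the filter on low counts and were tested among 15529 genes. PSMA8, a testis form of an alpha subunit, had 1 count in the 4 libraries together, and PSMB11, the thymus form of a beta subunit, had 0 counts. These genes were compared between the core and the invasion zone of spheroids of MV3 cells, an established line from a highly metastatic human melanoma, by bulk RNAseq of 2 libraries per zone. All spheroids carried H2B-GFP, a green fluorescent histone, held 50000 cells in collagen I and were dissected on day 2, without any other treatment in the labels. A 1 mm punch took the core and a 3 mm punch the invasion zone around it, guided by fluorescence. According to the study, invading cells above and below the core may remain in the core punch. Each zone has replicates 1 and 2. MV3 is a single cell line, and the labels do not say how many spheroids went into a library.

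The proteasome is the protease that degrades proteins marked with ubiquitin. Its 20S core particle is a barrel of alpha and beta rings, in which PSMB5, PSMB6 and PSMB7 carry the catalytic sites, and a 19S regulatory particle of ATPases (PSMC) and non-ATPase subunits (PSMD) binds, unfolds and feeds in substrates. In cells that respond to interferon, PSMB8, PSMB9 and PSMB10 replace the 3 catalytic subunits in newly built particles, the immunoproteasome, and the PA28 activator of PSME1 and PSME2 can cap the barrel, which alters the peptides made for MHC class I.

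In the invasion zone, most constitutive subunits of the barrel and the 19S particle had higher transcript levels than in the core, while the 3 immunoproteasome subunits and PSME1 had lower ones. The 44 genes together took 0.612% and 0.693% of all counts in core replicates 1 and 2, and 0.819% and 0.952% in invasion zone replicates 1 and 2. The 95% Wilson intervals of these shares, which cover counting error only, ran from 0.609% to 0.614%, from 0.688% to 0.697%, from 0.816% to 0.822% and from 0.947% to 0.958%. The invasion zone shares were thus higher than either core share, and replicate 2 lay above replicate 1 in each zone.

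Depth went with the replicate number, from 36363358 (core) to 37591782 counts (invasion zone) for replicate 1 and from 14983135 (core) down to 11789243 (invasion zone) for replicate 2. Levels are given as normalized CPM, the counts of a gene relative to the counts of its library in the genes that passed the filter. They were scaled by TMM factors that lay between 0.985 and 1.01. Of the melanocyte lineage markers, SOX10 and TYR had no count in any library, and MITF lay between 1.71 and 3.37 CPM, PMEL between 0.267 and 1.01 CPM and MLANA between 0.597 and 0.978 CPM. VIM, the mesenchymal filament, lay between 1696 and 2439 CPM. Of the markers of other cell types, PTPRC, EPCAM and KRT5 stayed at or below 0.196 CPM. The endothelial marker PECAM1 was at 18.1 and 7.43 CPM in the core and 5.23 and 0.926 CPM in the invasion zone, and its part in the results was not tested. In bulk libraries of a single cell line, fewer cells that express a gene and less of its RNA per cell cannot be told apart.

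The zones were first compared by edgeR's quasi-likelihood test without a replicate term, with Benjamini-Hochberg adjustment over the 15529 genes and no minimum fold. This test called 0 of the 42 members, and 0 genes in all in either direction (0.0%), with adjusted p between 0.112 and 0.875 for the members. At an unadjusted p under 0.05 it placed 19 members higher and 1 lower in the invasion zone, beside 12.3% and 13.2% of all genes. DESeq2 without a replicate term called 7 members higher and 1 lower, beside 4.73% and 5.34% of all genes, and limma voom called 0.

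The protocol takes a core and then its corresponding invasion zone, so same-numbered libraries were read as pairs, although no source used here says that a number stands for a shared spheroid or batch. With the replicate number as a block, edgeR called 31 of the 42 members higher and 5 lower, beside 20% and 20.1% of all genes. In this paired fit, adjusted p for the members ran from 1.58e-04 to 0.635, and 6 members passed in neither direction. DESeq2 with the same block called 24 of these 31 and 4 of these 5, beside 13.5% and 12.2% of all genes, and did not call PSMA2, PSMA4, PSMB4, PSMC6, PSMD6, PSMD9, PSME4 and PSMD5. "Rose" and "fell" refer to edgeR's paired fit, and each log2 difference with its standard error (SE) to the fit without the block. The SE therefore does not measure the spread behind those calls. With 2 libraries per zone, the block leaves the paired fit little residual spread to estimate from. The median log2 difference, invasion zone minus core, was 0.39 over the 42 members and -0.01 over all genes tested. Within replicate 1 the members' median was 0.38, and within replicate 2 it was 0.40, so it held at both depths. The values of the zones did not overlap in 34 members, 29 of them higher and 5 lower in the invasion zone, beside 28.1% and 30.3% of all genes.

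**Figure D1:**
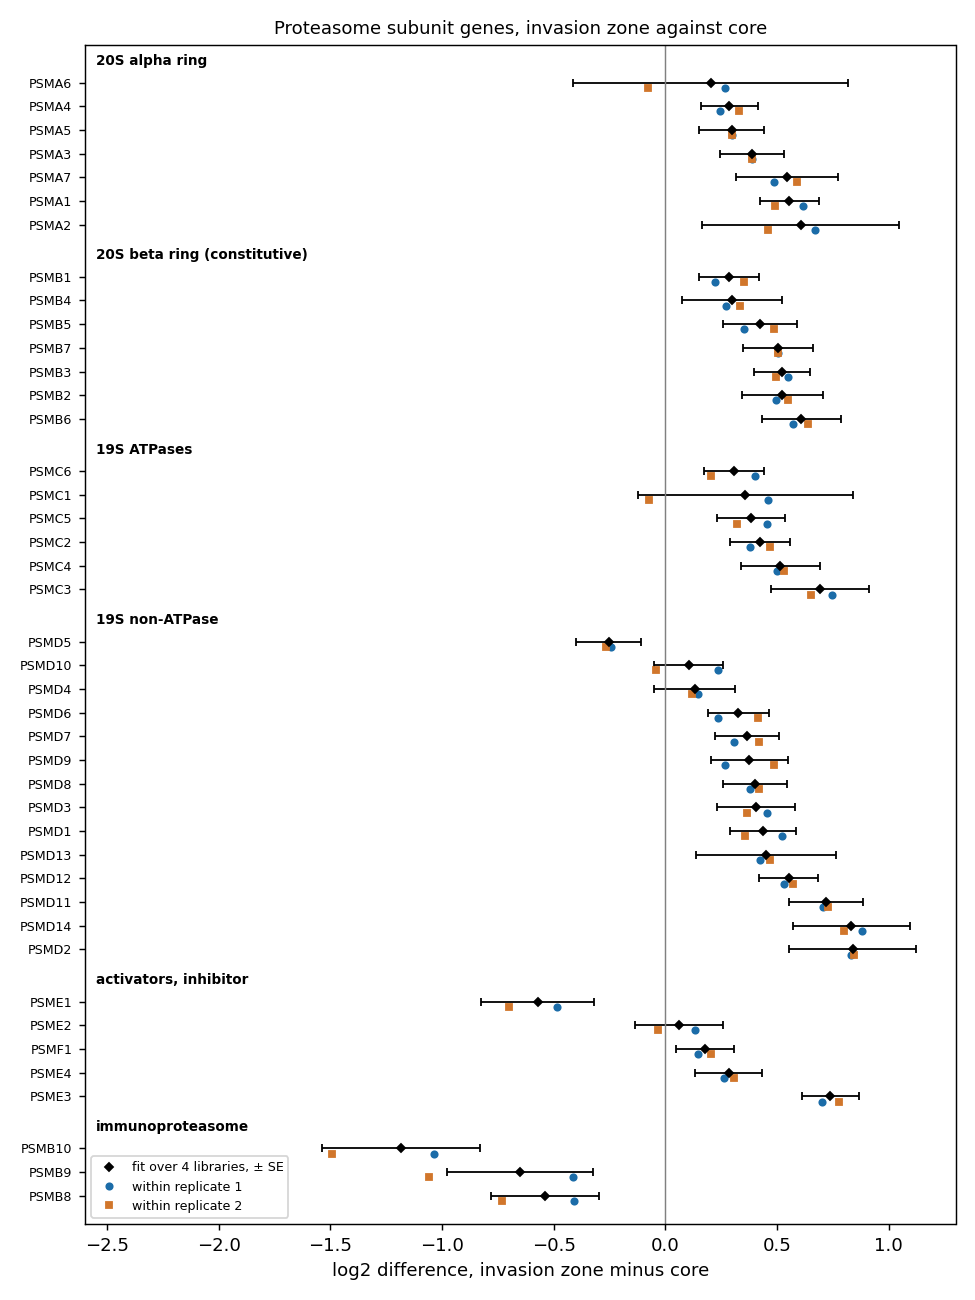
Log2 difference between invasion zone and core (horizontal axis) for the 42 proteasome subunit genes tested, grouped by role. Diamonds with bars show the fit over 4 libraries ± SE, and circles and squares the differences within replicates 1 and 2. The groups of constitutive subunits lie mostly to the right of 0, with PSMD5 at -0.25, and the 3 immunoproteasome subunits lie to the left of it.

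The alpha rings form the gates of the barrel. Of the 7 alpha subunits tested, 6 rose and PSMA6 did not pass, with a median log2 difference of 0.39 and a range from 0.20 to 0.61. PSMA7, the member with the highest level per kilobase of transcript in both zones, was at 463 and 599 CPM in the core and 649 and 901 CPM in the invasion zone. It rose, with a log2 difference of 0.55 ± 0.23 (SE, n = 2 per zone), an edgeR adjusted p of 0.213 without and 8.05e-04 with the block. All invasion zone values of PSMA7 lay above the core values, although core replicate 2 came close to invasion zone replicate 1. PSMA1 had 78.5 and 79.3 CPM in the core and 120.5 and 111.4 CPM in the invasion zone. It rose by a log2 difference of 0.56 ± 0.13, and its replicates lay close together within each zone. Exons of another gene on the same strand overlapped 26.7% of the PSMA1 exons.

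PSMA2 and PSMA6 had far lower counts than the other alpha subunits tested. PSMA2 was at 15.9 and 8.69 CPM in the core and 25.4 and 12.0 CPM in the invasion zone, where the zones overlapped. It rose within replicates, with a log2 difference of 0.61 ± 0.44 that became -0.07 when invasion zone replicate 1 was left out. PSMA6 was at 13.1 and 5.24 CPM in the core and 15.7 and 4.97 CPM in the invasion zone. Its log2 difference of 0.20 ± 0.62 had opposite signs in the replicates. Near-identical sequence elsewhere in the genome, at 95% identity or more, covered 95.7% of the PSMA6 transcript and 11.8% of the PSMA2 transcript. Exons of another gene on the same strand overlapped 14.1% of the PSMA6 exons and 17.2% of the PSMA2 exons. The counts came from uniquely mapped reads, so both levels are uncertain. How far either feature lowered the counts was not tested. The remaining alpha subunits, PSMA3, PSMA4 and PSMA5, rose by log2 differences between 0.29 and 0.39.

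All 7 constitutive beta subunits rose in edgeR's paired fit, PSMB4 not in that of DESeq2, with a median log2 difference of 0.51 and a range from 0.29 to 0.61, and in 6 of them the zones did not overlap. PSMB5, the chymotrypsin-like subunit (chr14:23016543-23035230, GRCh38), was at 281 and 316 CPM in the core and 360 and 442 CPM in the invasion zone. Its log2 difference was 0.43 ± 0.17 (SE, n = 2 per zone), with an edgeR adjusted p of 0.191 without and 0.00282 with the block, and the difference was 0.27 with invasion zone replicate 2 left out. PSMB6, the caspase-like subunit (chr17:4796144-4798502), was at 192 and 228 CPM in the core and 286 and 356 CPM in the invasion zone. The level of PSMB6 in the invasion zone was 1.53 times that in the core, the log2 difference 0.61 ± 0.18, and the edgeR adjusted p 0.135 without and 4.72e-04 with the block.

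PSMB7, the trypsin-like subunit (chr9:124353465-124415444), was at 209 and 241 CPM in the core and 297 and 342 CPM in the invasion zone. It rose by a log2 difference of 0.51 ± 0.16, and the differences within replicates 1 and 2 were 0.51 and 0.50. The smallest log2 difference of the ring was that of PSMB1, a structural subunit, at 0.29 ± 0.14, from 224 and 202 CPM to 262 and 257 CPM. PSMB4 was the subunit whose zones overlapped, at 92.7 and 67.3 CPM in the core and 112 and 84.8 CPM in the invasion zone.

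The subunits that replace PSMB5, PSMB6 and PSMB7 in the immunoproteasome moved the other way. All 3 fell, with a median log2 difference of -0.65, of -0.41 within replicate 1 and -1.06 within replicate 2. PSMB8 (chr6:32840717-32844679) was at 89.8 and 73.2 CPM in the core and 67.6 and 44.1 CPM in the invasion zone. PSMB9 (chr6:32844136-32859851), which lies beside PSMB8 in the MHC region, was at 68.5 and 55.1 CPM in the core and 51.5 and 26.4 CPM in the invasion zone. PSMB10 (chr16:67934506-67936864) was at 62.3 and 43.5 CPM in the core and 30.4 and 15.5 CPM in the invasion zone. For each of the 3 genes the zones did not overlap, and invasion zone replicate 2 was the lowest library.

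PSMB8 had a log2 difference of -0.54 ± 0.24 (SE, n = 2 per zone), with an edgeR adjusted p of 0.230 without and 0.00344 with the block. For PSMB9, the log2 difference was -0.65 ± 0.33, with an edgeR adjusted p of 0.275 without and 0.00635 with the block. PSMB10 had the largest fall of the 42 members, with a log2 difference of -1.18 ± 0.35, an edgeR adjusted p of 0.138 without and 3.13e-04 with the block. It was also the only member called with a 2-fold minimum beside the block, where 7.4% of all genes were called lower, and the only one DESeq2 called lower without it. The exons of PSMB10 overlap those of another gene on the same strand over 39.4% of their length, and the exons of PSMB8 overlap antisense genes over 17.3%. How the counting treated strand is not given in the sources used here. Single libraries moved the size of these falls. With invasion zone replicate 2 left out, the log2 difference was -0.27 for PSMB8, -0.27 for PSMB9 and -0.80 for PSMB10, and with invasion zone replicate 1 left out it was -0.89, -1.23 and -1.78. PSMB8-AS1, the antisense gene, was at 6.20 and 3.58 CPM in the core and 3.28 and 0.673 CPM in the invasion zone.

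**Figure D2:**
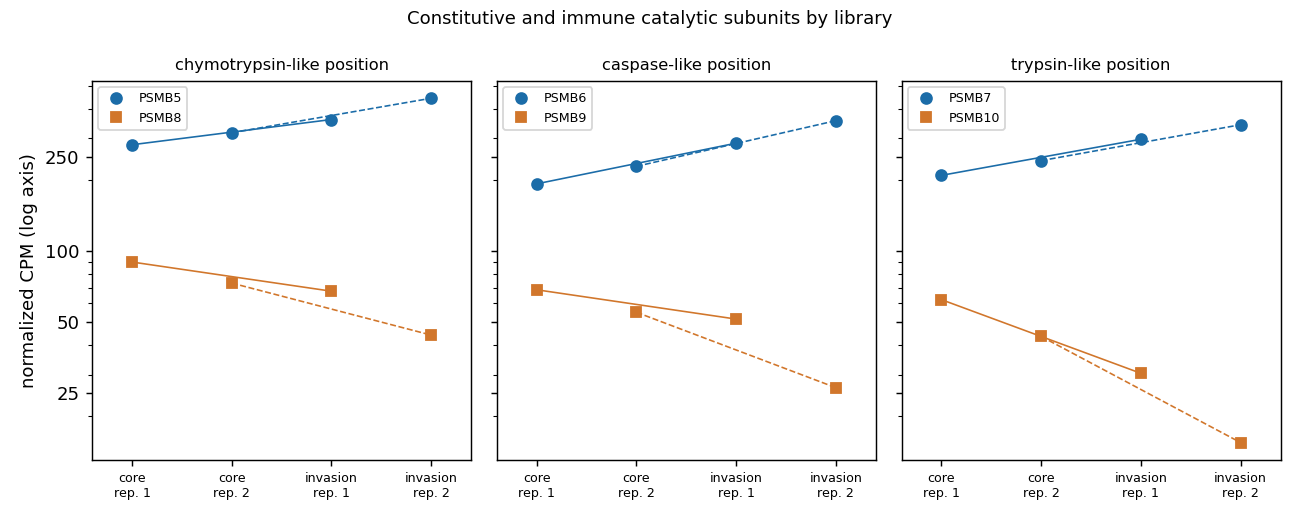
Normalized CPM (vertical, log axis) of each constitutive catalytic subunit and the immune subunit that takes its place, in the 4 libraries (horizontal axis). Solid lines join the replicate 1 libraries and dashed lines the replicate 2 libraries. Every line of a constitutive subunit goes up from core to invasion zone, and every line of an immune subunit goes down.

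The exchange partners were also set against each other within each library, where the scaling between libraries cancels. PSMB8 had 31.9 and 23.2 counts per 100 counts of PSMB5 in the core, and 18.8 and 9.97 in the invasion zone. PSMB9 had 35.6 and 24.2 counts per 100 of PSMB6 in the core, and 18.0 and 7.43 in the invasion zone. PSMB10 had 29.8 and 18.1 counts per 100 of PSMB7 in the core, and 10.2 and 4.53 in the invasion zone. The log2 ratios differed between zones by -0.99, -1.34 and -1.77, against pooled SDs between replicates of 0.51, 0.70 and 0.69. Each of the 3 ratios was lower in both invasion zone libraries than in both core libraries, and the exact two-sided permutation p was 0.333, the smallest that 2 against 2 libraries allow. With invasion zone replicate 2 left out the differences were -0.53, -0.70 and -1.18, and with invasion zone replicate 1 left out they were -1.45, -1.98 and -2.36. On counts per kilobase of canonical transcript, the 3 immune subunits stood between 28.9 and 30.0 per 100 of their partners in core replicate 1, and between 4.56 and 9.26 in invasion zone replicate 2.

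**Figure D3:**
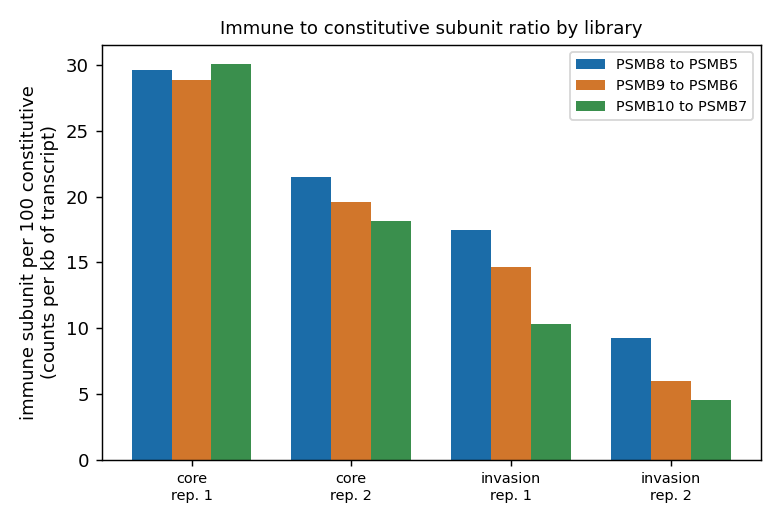
Immune subunit per 100 of its constitutive partner, on counts per kilobase of transcript (vertical axis from 0), in the 4 libraries (horizontal axis), with 1 bar per pair. The bars of both invasion zone libraries lie below those of both core libraries, and the range is from 30.0 down to 4.56 for PSMB10 to PSMB7.

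Promoters of the members, whether or not they moved, were read for an interferon-type element on either strand, spelled as GAAA, 2 bases of any kind and GAAA again. RefSeq promoters (GRCh38.p14) from 250 bases before to 50 bases after the start were on hand for 39 of the members, in 47 windows. The element was in 6 of these 47 windows (12.8%) and in 1255 of the 35097 promoters of all genes (3.58%). In 4 of the members it read gaaagcgaaa or its reverse complement, letters compared after the matches had been seen. Of all 35097 promoters, 35 (0.1%) hold these letters, the promoters of the 4 members included. The letters were taken from the members' own matches, so this share is no test of them. These 4 are shown because they belong to PSMB8, PSMB10 and PSME1, which fell, and to PSME2, which did not. They are given 5′ to 3′ along the gene, with the element in capitals.
PSMB10 (chr16:67936852-67936881, minus strand): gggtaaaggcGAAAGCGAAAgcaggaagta
PSMB8 (chr6:32844032-32844061, minus strand): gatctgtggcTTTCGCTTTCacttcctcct
PSME1 (chr14:24136189-24136218, plus strand): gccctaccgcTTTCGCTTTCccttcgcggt
PSME2 (chr14:24146619-24146648, minus strand): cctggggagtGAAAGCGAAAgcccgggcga
PSMB9 and PSMD5, which fell too, had no match in their windows. PSMA4 and PSMB4, which rose, had matches with other middle letters. TGANNNNGC, an antioxidant-type element, was in 29 of the 47 windows (61.7%) and in 41.8% of all promoters, and CCAAT in 19 (40.4%) and in 34.6% of all promoters. These are matches of letters only.

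The 6 ATPases of the 19S base form the ring that unfolds substrates. Of these, 5 rose and PSMC1 did not pass, with a median log2 difference of 0.41 and a range from 0.31 to 0.69. PSMC3 (chr11:47418769-47426473) was at 150 and 207 CPM in the core and 251 and 325 CPM in the invasion zone. Its invasion zone level was 1.62 times the core level, with a log2 difference of 0.69 ± 0.22 (SE, n = 2 per zone) and an edgeR adjusted p of 0.146 without and 2.97e-04 with the block. PSMC6 had the smallest log2 difference of the ring, 0.31 ± 0.14, from 85.0 and 88.6 CPM to 112 and 102 CPM. Its call was lost in DESeq2 with the block and after correction for GC content and length with the block, and near-identical sequence elsewhere covered 71.3% of its transcript. All other ATPases that rose lay between these values.

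PSMC1 had the lowest level of the 42 members, at 1.15 and 0.796 CPM in the core and 1.58 and 0.757 CPM in the invasion zone, or 121 counts in the 4 libraries together. Its log2 difference was 0.36 ± 0.48, with opposite signs in the replicates. Near-identical sequence on other chromosomes covered 38.0% of its transcript, 13 pseudogene rows of the gene held 177 counts, and 76.1% of its exons overlap NRDE2 on the opposite strand. The counted level of PSMC1 is therefore uncertain.

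Among the 14 non-ATPase (PSMD) genes, most of which encode the lid and the rest of the base, 11 rose and PSMD5 fell. PSMD4 and PSMD10 passed in neither direction. PSMD2 (chr3:184299198-184309050), the large base subunit on which shuttle factors dock, was at 546 and 802 CPM in the core and 972 and 1439 CPM in the invasion zone. It rose 1.79-fold, with a log2 difference of 0.84 ± 0.28 (SE, n = 2 per zone) and an edgeR adjusted p of 0.155 without and 1.58e-04 with the block, and a difference of 0.53 with invasion zone replicate 2 left out. PSMD14 (chr2:161308425-161411717), the deubiquitinase that removes ubiquitin chains from substrates, was at 142 and 212 CPM in the core and 261 and 369 CPM in the invasion zone. It rose by a log2 difference of 0.83 ± 0.26, and like PSMD2 it was higher in replicate 2 than in replicate 1 of each zone. PSMD11, a lid subunit, was at 129 and 152 CPM in the core and 211 and 253 CPM in the invasion zone, with a log2 difference of 0.72 ± 0.17. The other 8 PSMD genes that rose had log2 differences between 0.33 and 0.55.

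PSMD5 (chr9:120815496-120842951), a chaperone of base assembly that is absent from the finished particle, was the one gene that fell among the 34 constitutive genes tested, of which 29 rose. It was at 178 and 160 CPM in the core and 150 and 133 CPM in the invasion zone, both invasion zone values lying below both core values. The log2 difference was -0.25 ± 0.15, with an edgeR adjusted p of 0.328 without and 0.0268 with the block, and DESeq2 with the block did not call it. PSMD4, a ubiquitin receptor, was at 132 and 164 CPM in the core and 146 and 179 CPM in the invasion zone, and near-identical sequence elsewhere covered 94.4% of its transcript. PSMD10, another base chaperone, was at 47.0 and 48.0 CPM in the core and 55.3 and 46.6 CPM in the invasion zone. The zones of PSMD4 and PSMD10 overlapped.

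The activators that cap the barrel in place of the 19S particle did not move as 1 group. PSME1 (chr14:24136163-24138967), the alpha subunit of PA28, was at 317 and 240 CPM in the core and 226 and 148 CPM in the invasion zone. It fell, with a log2 difference of -0.57 ± 0.25 (SE, n = 2 per zone) and an edgeR adjusted p of 0.228 without and 8.94e-04 with the block, and leaving out core replicate 1, invasion zone replicate 1 or invasion zone replicate 2 gave -0.35, -0.92 or -0.30. Its partner PSME2 (chr14:24143362-24147570), the beta subunit of the same ring, was at 172 and 143 CPM in the core and 189 and 140 CPM in the invasion zone. PSME2 passed in neither fit, with a log2 difference of 0.06 ± 0.20 and opposite signs in the replicates, and near-identical sequence elsewhere covered 98.4% of its transcript. In counts per 100 of PSME2, PSME1 stood at 184 and 167 in the core and 120 and 105 in the invasion zone.

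PSME3 (chr17:42824385-42843760), the nuclear PA28 gamma activator, rose. It was at 128 and 123 CPM in the core and 208 and 212 CPM in the invasion zone, 1.67-fold higher, and its replicates lay closer together than its zones. The log2 difference was 0.74 ± 0.13 (SE, n = 2 per zone), with an edgeR adjusted p of 0.112 without and 2.63e-04 with the block. PSME1 thus stood at 247 and 194 counts per 100 of PSME3 in the core, and at 109 and 69.7 in the invasion zone. PSME4, the PA200 activator, rose from 46.7 and 41.6 CPM to 56.1 and 51.5 CPM, with a log2 difference of 0.29, and DESeq2 with the block did not call it. PSMF1, the PI31 inhibitor, was at 164 and 167 CPM in the core and 182 and 193 CPM in the invasion zone, with an adjusted p of 0.0945 in edgeR's fit with the block.

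**Figure D4:**
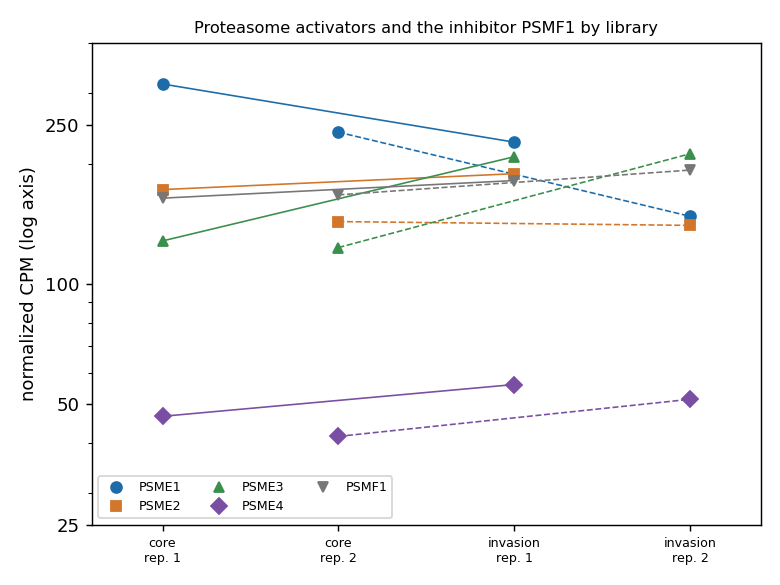
Normalized CPM (vertical, log axis) of the proteasome activators PSME1 to PSME4 and of the inhibitor PSMF1 in the 4 libraries (horizontal axis). Solid lines join the replicate 1 libraries and dashed lines the replicate 2 libraries. PSME1 goes down and PSME3 up in both replicates, and PSME2 goes up in replicate 1 and down in replicate 2.

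Proteasome assembly needs chaperones that are not part of the finished particle. Of 6 assembly chaperones outside the 44 genes, 4 rose, beside 20% of all genes, and PSMG2 and PAAF1 did not pass. The median log2 difference of the 6 was 0.47. POMP, which matures the 20S core, went from 141 and 140 CPM to 201 and 205 CPM. PSMG3 went from 40.6 and 50.5 CPM to 71.0 and 88.5 CPM. Both rose. Of 9 genes for other 19S subunits and proteasome-associated factors, 6 rose, beside 20% of all genes. The ubiquitin receptor ADRM1 was among the 6, with a log2 difference of 0.59.

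NFE2L1, or NRF1, is the factor that induces proteasome genes when proteasome activity drops, and it is activated through proteins of the endoplasmic reticulum and cytosol. Its own transcript was at 124 and 119 CPM in the core and 119 and 94.2 CPM in the invasion zone, with a log2 difference of -0.19 that passed in neither fit and became 0.06 after correction for GC content and length. Of 12 genes of its pathway, 3 rose, 3 fell and 6 did not pass, shares close to those of all genes in the same fit, 20% and 20.1%. The related factor NFE2L2, at 256 and 214 CPM in the core and 182 and 156 CPM in the invasion zone, fell, and so did SEL1L, an adaptor of degradation at the endoplasmic reticulum, with a log2 difference of -0.59.

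Of 6 genes for ubiquitin and its activating enzymes, 2 rose, 1 fell and 3 did not pass. In the same fit, 20% of all genes rose and 20.1% fell. The activating enzyme UBA6 rose with a log2 difference of 0.38. UBB, a polyubiquitin gene, was at 154 and 119 CPM in the core and 155 and 153 CPM in the invasion zone and did not pass. Of 5 shuttle factors tested, 3 rose, beside the same 20% of all genes. Of 9 antigen processing genes, 7 fell and 0 rose, beside 20.1% and 20% of all genes. The antigen processing genes had values like those of the immunoproteasome, with a median log2 difference of -0.66. Among these, IRF1, a factor that activates interferon response genes, went from 211 and 130 CPM in the core to 95.5 and 37.4 CPM in the invasion zone, and B2M from 3803 and 2768 CPM to 2471 and 1699 CPM.

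Single libraries decided calls in the unblocked fit. With core replicate 2 left out it called 4 members higher and 1 lower, beside 4.96% and 5.6% of all genes. With invasion zone replicate 1 left out it called 5 members higher and 4 lower, beside 5.16% and 7.36% of all genes. It called 0 members with core replicate 1 left out, beside 0.0537% and 0.724% of all genes, and 0 with invasion zone replicate 2 left out, beside 1.06% and 1.66%.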

How the data were processed

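Values are raw counts per gene, deposited by the authors, who per the study's methods used Bowtie to discard ribosomal RNA reads, filtered reads on quality, aligned them to hg38 with STAR and counted uniquely mapped reads with HTSeq. Tool versions, gene annotation and strandedness of counting were not given in the sources used here. Of 56306 rows in the table, 2 repeated rows with 0 counts were left out. Columns were assigned to samples by zone and replicate in their names.

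In R 4.3.3, edgeR 4.0.16 kept genes with filterByExpr (minimum count 10, minimum total 15), scaled libraries by TMM and compared zones by the quasi-likelihood test on 2 against 2 libraries, with calls at an adjusted p under 0.05. The SE is the one the F statistic implies. Nothing states that replicates are separate cultures, so p-values may measure only technical spread. Within a zone, replicates differed by more than sampling noise. The deviations of same-numbered libraries from the zone means correlated at r = 0.64 across genes (2 pairs). Alternatives used limma 3.58.1, DESeq2 1.42.0, other scalings and filters, thinning, correction for GC content and length, and libraries left out. The procedure was tested on simulated data with known changes. Where same-numbered libraries shared a simulated shift, the fit without the block recovered 0 of 100 genes at an absolute log2 difference of 1. The fit with the block recovered 99, and at 0.5 the 2 fits recovered 0 and 73 of 100. Without such a shift, both fits recovered 99 of 100 at 1. The simulated shift was the same in both zones, which the block removes by design. The remaining spread was set equal for all genes, and changes were placed only in genes above a count minimum. These recoveries therefore do not show how well the paired fit works on these libraries.

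The members and gene lists were chosen with earlier results of these data known. Named genes were those of a rule on roles (the catalytic pairs, activators and inhibitor, the members with the largest and smallest difference in each ring or 19S list, members changed at least 2-fold, NFE2L1, NFE2L2, POMP, UBB and others, and the gene with the smallest p of each other list with the block), of which some are not reported here, and PSMA1, PSMA3, PSMA4, PSMA5, PSMA7, PSMB4, PSMC1, PSMD4, PSMD10, PSMD11, PSMD14, PSMG2, PAAF1, B2M, TAP2 and PSMB8-AS1 were chosen after their values were seen. Positions are from GENCODE release 44 (GRCh38).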

Additional observations from a re-analysis of the deposited data

How the results depend on the processing

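Counts below are given as members higher, members lower, other ubiquitin-proteasome genes called, all genes higher and all genes lower in the invasion zone. Without the replicate block, edgeR gave 0 for each, and so did RLE, upper-quartile or total scaling, at least 10 counts in every library, limma voom, edgeR's older procedure, thinning and the GC and length correction. Without a count filter, all genes gave 96 and 203. DESeq2 gave 7, 1, 7, 734 and 829, and an unadjusted p gave 19, 1, 14, 1905 and 2045. Pairing by the replicate block gave 31, 5, 29, 3107 and 3121 in edgeR, 24, 4, 22, 2101 and 1895 in DESeq2, and 31, 5, 31, 3234 and 3228 in limma voom. The 31 and 5 members of limma voom were the same genes as in edgeR, and DESeq2 shared 24 and 4. With the GC and length correction and the replicate block the counts were 30, 5, 33, 4057 and 2694, of which 29 members higher were shared, and 60.1% of all calls were higher against 49.9%. A 2-fold minimum with the replicate block left 0, 1, 1, 588 and 1149. Leaving out 1 library gave 0 to 5 members higher, 0 to 4 lower, 0 to 8 other genes, 8 to 862 genes higher and 108 to 1102 lower, and the lone library of a zone was then assumed to vary like the rest. No block could be used with a library left out, since no residual degree of freedom remained.

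The median log2 difference of the members, 0.39, was 0.36 with upper-quartile scaling, 0.36 with at least 10 counts in every library, 0.44 with the GC and length correction, which moved the median of all genes to 0.08, and 0.43 with that correction and the replicate block. It ranged from 0.34 to 0.46 with a library left out, and the log2 ratios from -1.447 to -0.532 (PSMB8 to PSMB5), -1.981 to -0.702 (PSMB9 to PSMB6) and -2.356 to -1.179 (PSMB10 to PSMB7). Directions reversed in PSME2 (-0.173 to 0.257), PSMA2 (-0.074 to 1.139) and PSMA6 (-0.936 to 1.051) with a library left out, likewise in PSMC1 (lowest -0.432), PSMD4 (lowest -0.022) and PSMD10 (lowest -0.028), and in NFE2L1 (0.061) under the GC and length correction with and without the replicate block. The cause of these changes was not tested.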
